A study of Mus musculus with 36 samples.

Results

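The regions described here are promoter sites that CHD4 occupied in neural progenitor cells (NPCs) without a called MBD3 peak and without a CHD4 peak in embryonic stem cells (ESCs). They were taken from the NPC CHD4 peak list as peaks whose midpoint lay within 1 kb of a protein-coding transcription start site (TSS), and which shared no base with an NPC MBD3 peak or with a CHD4 peak of either ESC replicate. This rule gave 1523 of 20234 NPC CHD4 peaks, and 1523 of the 2999 NPC CHD4 peaks at promoters. They are called NPC-only promoter peaks without MBD3 below. They were thus chosen by the NPC CHD4, NPC MBD3 and ESC CHD4 peak calls, which are given as a description, and by their position within 1 kb of a TSS. Sequence, SIN3A, ZFP296 and ESC MBD3 were not used by the rule.

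Chromatin immunoprecipitation followed by sequencing (ChIP-seq) was performed on mouse R1 ESCs, grown with foetal bovine serum, LIF, the MEK inhibitor PD0325901 and the GSK3 inhibitor CHIR99021, and on NPCs derived from wild-type R1 ESCs in vitro and propagated with bFGF and EGF. Cell type and medium thus differed together and cannot be told apart here. Of 36 samples in the series, 9 had a peak list. CHD4 and MBD3 were profiled in wild-type NPCs (1 list each, 20234 and 2304 peaks) and wild-type ESCs (2 replicates each, with 11712 and 29974 peaks for CHD4, and 2344 and 7551 for MBD3). SIN3A was profiled in wild-type ESCs in a preparation without spike-in chromatin (16170 peaks) and one with it (11422 peaks), and GFP-tagged ZFP296 was profiled in ESCs that carry a tagged copy (3102 peaks). The labels give the tagged copy as a bacterial artificial chromosome in R1 ESCs, whereas the methods describe a construct in KH2 ESCs. The peaks of ESC CHD4 replicate 2 carry names that refer to a Zfp219 line although the sample is labelled wild type. Several comparisons that rest on this list are therefore also given without it. Shares within CpG classes, by distance and by string position, the ZFP296 comparison, and most chromosome and gene list shares are given only with it. NPC lists had no replicate, so that tests over peaks cover counting error in these lists and no biological variation, and neighbouring peaks of 1 promoter are not independent.

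CHD4 is the ATP-dependent chromatin remodeler within NuRD, a complex that joins nucleosome remodeling with histone deacetylation, and MBD3 is a subunit that links the remodeling and deacetylase parts of that complex. The paper also lists MBD2 as a core subunit, and states that some paralogs form separate NuRD subcomplexes. MBD2 was not profiled, so CHD4 without an MBD3 peak is not shown to be outside NuRD. CHD4 also occurs outside NuRD, for instance in the ChAHP complex. AP-1 is a family of dimeric transcription factors of FOS, JUN, ATF and MAF proteins, which binds the palindrome-like string TGACTCA. Some of its members are induced by growth factor signaling through ERK. SIN3A is the scaffold of a different histone deacetylase complex, and ZFP296 is a zinc finger protein of pluripotent cells.

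The AP-1 string was present at 14.6% of these peaks and at 4.19% of promoter peaks without MBD3 that overlapped ESC CHD4. NPC-only promoter peaks with MBD3 had a share of 22.2%, and distal NPC-only peaks without MBD3 one of 50.2%. Of the peaks that carried it, 5 with high scores are shown first. Dhrs9, whose peak also held the string with a score of 31.7, is left out because its stretch free of exons does not hold the string. Sequences are on the plus strand of mm9, 5′ to 3′, and cover the central 200 bp of each peak as far as it is free of annotated exons. Capitals mark the string TGACTCA or its reverse complement TGAGTCA. Lsp1 encodes an actin-binding protein of leukocytes, Abcb8 a mitochondrial ABC transporter, Klhl21 a substrate adaptor of a CUL3 ubiquitin ligase, and Col15a1 a chain of type XV collagen.
Lsp1 chr7:149656650-149656849: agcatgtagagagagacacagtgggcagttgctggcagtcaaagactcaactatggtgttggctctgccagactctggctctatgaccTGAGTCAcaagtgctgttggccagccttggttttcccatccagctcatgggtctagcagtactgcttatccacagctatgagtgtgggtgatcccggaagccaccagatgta
Fam50b chr13:34825773-34825972: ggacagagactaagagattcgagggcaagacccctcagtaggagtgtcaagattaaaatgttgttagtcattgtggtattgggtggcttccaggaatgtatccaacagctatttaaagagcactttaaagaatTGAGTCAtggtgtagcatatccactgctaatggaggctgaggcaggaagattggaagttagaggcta
Abcb8 chr5:23899346-23899480: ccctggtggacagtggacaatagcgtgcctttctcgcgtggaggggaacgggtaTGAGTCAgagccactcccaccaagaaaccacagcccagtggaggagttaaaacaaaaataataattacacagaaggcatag
Klhl21 chr4:151382765-151382911: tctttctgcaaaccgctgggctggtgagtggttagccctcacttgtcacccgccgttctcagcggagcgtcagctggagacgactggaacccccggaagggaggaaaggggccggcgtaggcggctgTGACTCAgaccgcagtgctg
Col15a1 chr4:47316365-47316564: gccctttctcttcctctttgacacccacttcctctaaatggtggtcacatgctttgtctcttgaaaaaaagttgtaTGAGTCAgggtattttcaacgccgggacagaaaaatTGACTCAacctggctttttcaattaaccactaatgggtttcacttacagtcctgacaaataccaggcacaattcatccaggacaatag

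In the Lsp1 stretch the peak midpoint lay 998 bp upstream of the TSS, and the peak (score 35.3) had the highest score of any with the string. Fam50b (score 33.1) was 846 bp upstream, Abcb8 (29.3) 35 bp upstream, Klhl21 (25.7) 47 bp upstream, and Col15a1 (24.9) 129 bp upstream. The score is the value the peak caller gave each peak, −log10 of a p or q value. The Col15a1 stretch held 2 copies. By the annotation, the Lsp1 and Col15a1 midpoints lay in introns and the other 3 outside genes. Of these 5, the Klhl21 peak met the CpG criteria given below and overlapped an ESC SIN3A site, and its stretch had 11 CG dinucleotides against 1 to 4 in the others.

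The second set shows 2 CpG-rich peaks with high scores and 3 peaks at AP-1 genes, of which the Fos peak did not meet the CpG criteria. Nans encodes sialic acid synthase and Hif1an the asparaginyl hydroxylase that acts on HIF1A, and their peaks were the highest-scoring CpG-rich members. Junb, Fos and Atf3 encode AP-1 proteins. Capitals mark each CG dinucleotide.
Nans chr4:46501818-46502017: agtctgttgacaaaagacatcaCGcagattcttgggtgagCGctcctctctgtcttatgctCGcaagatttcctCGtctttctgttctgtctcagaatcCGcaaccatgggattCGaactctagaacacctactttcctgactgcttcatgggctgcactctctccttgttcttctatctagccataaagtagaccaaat
Hif1an chr19:44637166-44637339: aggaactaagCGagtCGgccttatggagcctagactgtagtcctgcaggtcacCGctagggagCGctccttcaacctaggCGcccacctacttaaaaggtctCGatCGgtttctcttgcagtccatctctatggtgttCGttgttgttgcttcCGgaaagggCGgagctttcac
Junb chr8:87502618-87502797: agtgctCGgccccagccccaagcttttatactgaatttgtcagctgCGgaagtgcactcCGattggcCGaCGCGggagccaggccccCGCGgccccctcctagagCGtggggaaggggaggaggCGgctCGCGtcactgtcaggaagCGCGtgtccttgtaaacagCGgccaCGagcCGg
Fos chr12:86814354-86814553: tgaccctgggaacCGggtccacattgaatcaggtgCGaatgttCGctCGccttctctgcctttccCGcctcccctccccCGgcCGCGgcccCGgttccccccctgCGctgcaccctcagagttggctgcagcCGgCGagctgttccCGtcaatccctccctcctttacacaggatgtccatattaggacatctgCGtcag
Atf3 chr1:193007511-193007710: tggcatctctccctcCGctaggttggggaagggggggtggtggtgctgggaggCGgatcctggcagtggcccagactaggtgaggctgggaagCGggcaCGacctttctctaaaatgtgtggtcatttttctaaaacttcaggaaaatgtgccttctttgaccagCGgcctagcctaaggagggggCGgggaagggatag

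The Nans stretch held 6 CG dinucleotides and the Hif1an stretch 10, with scores of 34.3 and 33.5. The Junb stretch held 17, Fos 14 and Atf3 6, with scores of 6.88, 6.81 and 7.88. These 5 midpoints lay outside genes, and none of the 5 stretches held the AP-1 string.

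The NPC-only promoter peaks without MBD3 were a mixture of CpG-rich and CpG-poor sites. A peak was called CpG-rich when its central 500 bp had at least 50% G and C and an observed over expected CpG ratio of at least 0.6. Of 1523 peaks, 910 (59.8%, exact 95% interval 57.2 to 62.2) were CpG-rich, where 67.5% of all NPC CHD4 promoter peaks and 47.4% of windows centred on a TSS met the same criteria. The remaining 613 were CpG-poor. The CpG-rich peaks lay close to the start, with a median distance of 134 bp between midpoint and TSS, and 71.0% were within 250 bp. CpG-poor peaks lay at a median of 445 bp, and 35.4% were within 250 bp. Of the CpG-poor peaks 63.3% were upstream of the TSS, and of the CpG-rich peaks 50.8%. The nearness of CpG-rich peaks to the TSS was not particular to this class. Among promoter peaks without MBD3 that overlapped ESC CHD4, 74.9% of CpG-rich and 32.0% of CpG-poor peaks were within 250 bp.

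**Figure D1:**
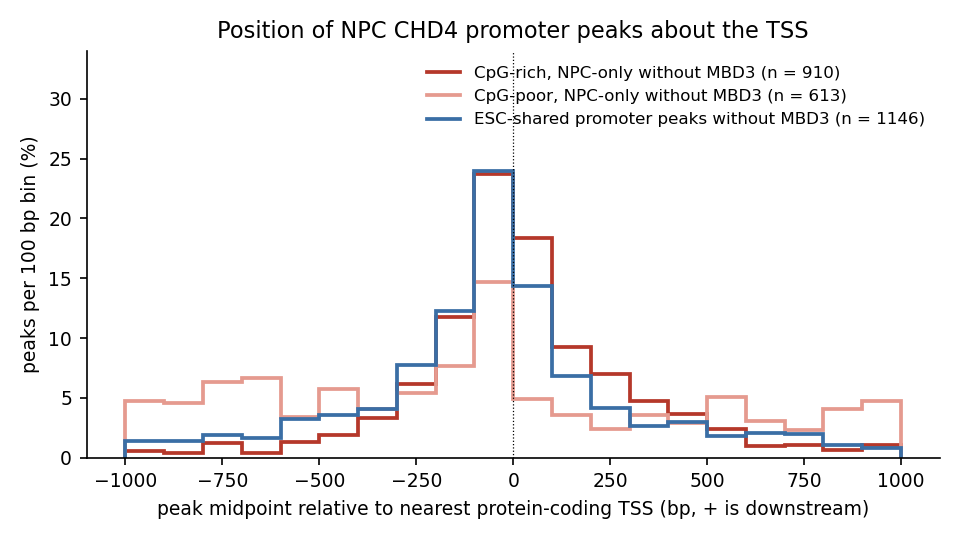
Distance from the nearest protein-coding TSS (x axis, bp) of NPC CHD4 promoter peaks in 100 bp bins (y axis, percent of each class). CpG-rich NPC-only peaks without MBD3 (n = 910) and ESC-shared promoter peaks without MBD3 (n = 1146) gather at the start, whereas the 613 CpG-poor NPC-only peaks spread over the window. The ESC-shared class is drawn without a split by CpG content. Of its CpG-poor peaks 32.0% lay within 250 bp, and of its CpG-rich peaks 74.9%.

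The other classes of NPC CHD4 peaks served for comparison. ESC-shared promoter peaks without MBD3 (n = 1146) overlapped an ESC CHD4 peak, NPC-only promoter peaks with MBD3 (n = 144) overlapped an NPC MBD3 peak and no ESC CHD4 peak, and distal NPC-only peaks without MBD3 (n = 13902, of which 13894 had reference sequence) lay more than 1 kb from any protein-coding TSS. Against the ESC-shared class, NPC-only promoter peaks without MBD3 were less often CpG-rich (59.8% and 74.6%, odds ratio 0.505, interval 0.425 to 0.5995, Fisher's exact test, adjusted p = 9.88e-16). This difference rested on ESC CHD4 replicate 2, since without that list the shares were 65.5% and 69.2% (Fisher's exact test, adjusted p = 0.147). No difference was detected from NPC-only promoter peaks with MBD3, of which 59.7% were CpG-rich (odds ratio 1.00, interval 0.694 to 1.44, Fisher's exact test, adjusted p = 1), but without ESC CHD4 replicate 2 the shares were 65.5% and 76.0% and the difference passed (odds ratio 0.599, adjusted p = 0.000801). Of distal peaks 1.35% were CpG-rich (odds ratio 109, interval 90.9 to 131). This is a description, because the rule set these 2 classes apart by distance from a TSS and 47.4% of TSS windows were CpG-rich.

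The AP-1 string was present at 222 of the NPC-only promoter peaks without MBD3 (14.6%, interval 12.8 to 16.4), counting either strand of the 200 bp around the midpoint. It was present at 10.5% of all NPC CHD4 promoter peaks, at 2.61% of 200 bp windows centred on the 45962 protein-coding TSSs and at 2.93% of windows centred 500 bp upstream of them. Of the 222 peaks, 27 held more than 1 copy. The ESC-shared promoter peaks held it at 48 of 1146 (4.19%, interval 3.10 to 5.52), which gave an odds ratio of 3.90 (interval 2.81 to 5.50, Fisher's exact test, adjusted p = 5.26e-20). The distal class held it at 6976 of 13894 peaks (50.2%), above the share at promoters (odds ratio 0.169, interval 0.146 to 0.196, Fisher's exact test, adjusted p = 9.69e-171). NPC-only promoter peaks with MBD3 held it at 32 of 144 (22.2%, interval 15.7 to 29.9), and the lower share without MBD3 passed the threshold (odds ratio 0.597, interval 0.389 to 0.939, Fisher's exact test, adjusted p = 0.0205), but not with gene 5′ ends as TSS, a TSS distance of 500 bp or scores of at least 5, nor without 5 chromosomes or ESC CHD4 replicate 2 (15.2% with and 11.2% without MBD3).

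Within the NPC-only promoter peaks without MBD3, the string was found at 174 of 613 CpG-poor peaks (28.4%) and at 48 of 910 CpG-rich peaks (5.27%). The excess over ESC-shared promoter peaks was seen in both strata. Among CpG-poor peaks the shares were 28.4% and 9.62% (odds ratio 3.72, interval 2.40 to 5.93, Fisher's exact test, adjusted p = 6.67e-11), and among CpG-rich peaks 5.27% and 2.34% (odds ratio 2.32, interval 1.34 to 4.17, adjusted p = 0.00534). Without ESC CHD4 replicate 2 the odds ratio over all peaks was 2.87 (Fisher's exact test, adjusted p = 3.96e-06). CpG-poor distal peaks held the string at 50.8%, above the CpG-poor promoter peaks (odds ratio 0.384, Fisher's exact test, adjusted p = 1.37e-27), whereas for CpG-rich peaks no difference from the distal class was detected (5.27% and 8.02%, odds ratio 0.639, interval 0.342 to 1.26, adjusted p = 0.248). NPC-only promoter peaks with MBD3 held the string at 29 of 58 CpG-poor peaks (50%, odds ratio 0.397, interval 0.222 to 0.711, Fisher's exact test, adjusted p = 0.000951). Among their CpG-rich peaks the count was 3 of 86 (3.49%, odds ratio 1.54, interval 0.480 to 7.90).

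The string was concentrated at the middle of the peaks. In 50 bp bins, 5.65% of the NPC-only promoter peaks without MBD3 had it just before the midpoint and 4.99% just after, against 0.394% to 0.919% in the bins beyond 200 bp. The corresponding central bins held 1.31% and 1.57% in the ESC-shared class and 18.6% and 19.1% in the distal class.

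**Figure D2:**
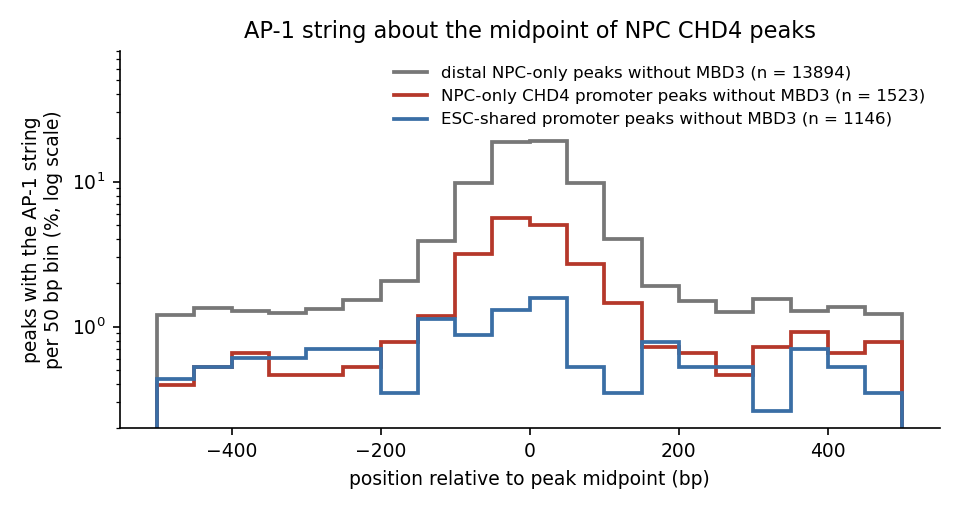
Percent of peaks with the AP-1 string per 50 bp bin (y axis, log scale) against the position from the peak midpoint (x axis, bp) for 3 classes of NPC CHD4 peaks. The central bins of the NPC-only promoter peaks without MBD3 (5.65% and 4.99%) lie between those of ESC-shared promoter peaks and distal peaks.

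Peaks farther from the TSS held the string more often and were less often CpG-rich. The AP-1 share was 9.15% (interval 7.31 to 11.3) of 863 peaks within 250 bp, 11.99% (8.49 to 16.3) of 292 peaks from 250 to 500 bp, 27.0% (21.0 to 33.8) of 196 peaks from 500 to 750 bp and 32.0% (25.1 to 39.5) of 172 peaks from 750 to 1000 bp. CpG-rich shares in the same bins were 74.9%, 58.6%, 28.6% and 21.5%, and in the ESC-shared class 87.3%, 65.9%, 44.6% and 25.6%. ESC-shared promoter peaks had lower AP-1 shares in each bin, with 3.001%, 3.27%, 9.09% and 10.3%, and each of these 4 values lay below the interval of the NPC-only peaks.

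NPC-only promoter peaks without MBD3 lay within 250 bp of a TSS in 863 cases (56.7%, with 59.9% over all NPC CHD4 promoter peaks). The ESC-shared class did so more often (64.0%, odds ratio 0.737, interval 0.627 to 0.865, Fisher's exact test, adjusted p = 0.000603), but without ESC CHD4 replicate 2 the order turned (60.1% and 58.2%, odds ratio 1.08). Promoters with protein-coding TSSs on both strands within 1 kb of the midpoint are called divergent, although the order of the starts was not checked. They held 107 midpoints (7.03%, with 6.94% over all NPC CHD4 promoter peaks). The ESC-shared class had 7.16% (odds ratio 0.981, interval 0.720 to 1.34) and NPC-only promoter peaks with MBD3 6.94% (odds ratio 1.01, interval 0.513 to 2.22), so that no difference was detected from either. By annotation, 609 midpoints (40.0%) were outside genes, 474 (31.1%) in introns, 317 (20.8%) in 5′ UTRs, 113 (7.42%) in coding exons and 10 in 3′ UTRs.

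A different deacetylase scaffold, SIN3A, was found in ESCs at part of these promoters. An ESC SIN3A site, meaning a peak of the spike-in preparation that overlapped one of the other preparation, covered 353 of 1523 NPC-only promoter peaks without MBD3 (23.2%, interval 21.1 to 25.4, with 32.6% over all NPC CHD4 promoter peaks). The sites fell mainly on the CpG-rich peaks, 335 of 910 (36.8%), and on 2.94% of the CpG-poor ones. Close to the TSS, within 250 bp, 32.0% had a SIN3A site, and from 750 to 1000 bp 5.23%. NPC-only promoter peaks with MBD3 had one in 42 of 144 cases (29.2%), a difference that did not pass the threshold (odds ratio 0.733, interval 0.496 to 1.10, Fisher's exact test, adjusted p = 0.185). Without ESC CHD4 replicate 2 it did (30.5% and 39.9%, Fisher's exact test, adjusted p = 0.00372). As a description, since ESC peaks chose these classes, SIN3A sites covered 42.1% of ESC-shared promoter peaks and 54.3% of the 186 promoter peaks with both MBD3 and ESC CHD4. The dependence on CpG content and distance was not particular to the NPC-only peaks without MBD3. ESC-shared promoter peaks had sites on 51.8% of CpG-rich and 13.4% of CpG-poor peaks, with 52.3% within 250 bp and 11.5% from 750 to 1000 bp. NPC-only promoter peaks with MBD3 had them on 46.5% of CpG-rich and 3.45% of CpG-poor peaks.

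**Figure D3:**
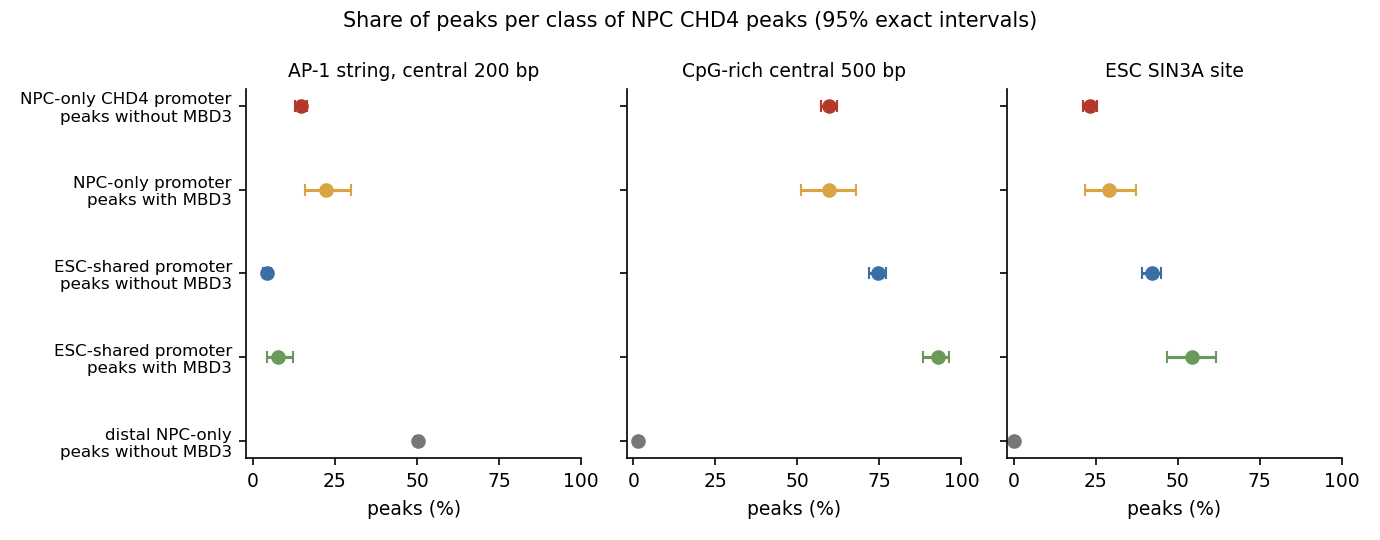
Percent of peaks (x axes) with the AP-1 string, a CpG-rich centre or an ESC SIN3A site in 5 classes of NPC CHD4 peaks, with exact 95% intervals. NPC-only promoter peaks without MBD3 (14.6%, 59.8% and 23.2%) lie between ESC-shared promoter peaks and distal peaks on all 3 measures.

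GFP-ZFP296 peaks of ESCs were rare here, with 19 of 1523 (1.25%, with 2.07% over all NPC CHD4 promoter peaks) against 1 of 144 with NPC MBD3 (odds ratio 1.81, interval 0.283 to 75.6, Fisher's exact test, adjusted p = 1). The highest-scoring were at Stx3, encoding a syntaxin (score 12.5, 663 bp upstream), the interferon-induced gene Ifit2 (10.8, 370 bp downstream) and the phospholipase D gene Pld1 (10.7, 555 bp downstream). An MBD3 peak in either ESC replicate covered 20 peaks (1.31%, with 6.67% over all NPC CHD4 promoter peaks), fewer than the 7 of 144 (4.86%) among those with NPC MBD3 (odds ratio 0.261, interval 0.104 to 0.743, Fisher's exact test, adjusted p = 0.0189). Both classes lack ESC CHD4 by the rule, and the paper reports that most ESC MBD3 sites also had CHD4. The shares over all NPC CHD4 promoter peaks are therefore a description, also for ZFP296. The class with MBD3 was chosen by NPC peaks of the same antibody. Without ESC CHD4 replicate 2 the ESC MBD3 shares were 2.94% and 20.2% (odds ratio 0.120). With ESC MBD3 replicate 1 alone the shares were 0.854% and 0 of 144, and the difference was lost (Fisher's exact test, adjusted p = 0.928).

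Of 11 further strings compared with 2 promoter classes, 1 of 22 comparisons passed. The ETS string CCGGAAGT was found at 51 peaks (3.35%, with 4.20% over all NPC CHD4 promoter peaks and 3.76% of TSS windows) and at 5.85% of ESC-shared promoter peaks (odds ratio 0.558, interval 0.377 to 0.823, Fisher's exact test, adjusted p = 0.0494). It no longer passed in 10 of 14 other settings, and without ESC CHD4 replicate 2 the order turned (4.46% and 4.23%). The SP/KLF string GGGGCGG was found at 23.8% and 27.8% (26.3% over all NPC CHD4 promoter peaks, 23.7% of TSS windows, Fisher's exact test, adjusted p = 0.128). This lower share passed with a window of 500 bp (40.4% and 49.5%, Fisher's exact test, adjusted p = 7.37e-05), with midpoints within 500 bp as overlap (adjusted p = 0.0202) and at a TSS distance of 2 kb (adjusted p = 0.0162), and without ESC CHD4 replicate 2 the shares were 25.6% and 25.1%. The NFY string CCAATC was found at 6.50% and 4.28% (5.14% over all NPC CHD4 promoter peaks, 10.8% of TSS windows, Fisher's exact test, adjusted p = 0.128). The E-box string CACGTG was found at 5.58% (5.87% over all NPC CHD4 promoter peaks), the TEAD string GGAATG at 9.26% (8.8%), the TATA string TATAAA at 3.41% (3.4%) and the E2F string TTCCCGCC at 2.76% (2.9%). Rarer still were the YY1 string AAGATGGC at 1.84% (1.67%), the CRE string TGACGTCA at 1.38% (1.5%), the SOX string CCATTGT at 1.31% (1.27%) and the NRF1 string at 0.131% (0.267%). A match says only that the letters are present in the window, on either strand.

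The scores of these peaks were modest. The median score was 7.54 (interval 7.23 to 7.65), the quartiles 5.94 and 9.66, and the range 3.19 to 46.3. ESC-shared promoter peaks without MBD3 had a median of 9.25, NPC-only promoter peaks with MBD3 10.02, and distal peaks 8.76, and these are descriptions because the same list chose the classes. Scores of at least 10 were reached by 22.7% of the NPC-only promoter peaks without MBD3, by 43.8% of the ESC-shared and by 51.4% of those with MBD3. The median width was 182 bp, and 162 peaks had the narrowest width of 138 bp. With the peaks in 4 equal groups from lowest to highest score, the AP-1 string was present at 9.71%, 10.5%, 18.1% and 20%, and CpG-rich centres at 66.1%, 63.3%, 55.6% and 53.9%. Peaks with the string had a median score of 8.54 and those without it 7.23.

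The highest score, 46.3, was at chr9:45637333-45637629, 707 bp upstream of Cep164, which encodes a centriole appendage protein. The peak was CpG-poor and without the string. Next came Lsp1, Nans, Hif1an and Fam50b, shown above, then Dhrs9 (score 31.7, 26 bp downstream in the 5′ UTR), a short-chain dehydrogenase gene that held the AP-1 string. Fbxo47 (30.7, 679 bp upstream), Abcb8 (29.3), the neighbouring genes C8g and Fbxw5 (29.1, 63 bp downstream of the C8g start) and 1700120B22Rik (28.3, 866 bp upstream) completed the 10 highest. Of these 10 peaks, 8 were CpG-poor and 4 held the string. The highest-scoring peaks with a SIN3A site were at Klhl21 (25.7), at the cytoskeletal linker gene Gas2l1 (24.2, 239 bp downstream) and at Got1, encoding cytosolic aspartate aminotransferase (20.8, 356 bp downstream), and these 3 were CpG-rich.

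The limits of the rule can be seen at its edges. Just inside 1 kb were Gm14221 (1000 bp upstream, score 6.88), the cytochrome P450 gene Cyp1b1 (999 bp upstream, 8.08) and Nfe2l2, which encodes the oxidative stress factor NRF2 (999 bp downstream, 6.58). Just outside were Cic (1008 bp downstream, 8.43), 2900010M23Rik (1013 bp upstream, 7.22) and Plekha5 (1013 bp downstream, 6.98). The lowest scores inside were at Man2a2 (3.19), Tead1 (3.20) and Ankrd13c (3.20).

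Distances to the nearest NPC MBD3 and ESC CHD4 midpoints are a description, because peaks overlapping these lists had been removed by the rule. The lists also differed in size (2304 NPC MBD3 peaks, and 11712 and 29974 ESC CHD4 peaks). An NPC MBD3 midpoint lay within 1 kb of 53 of the 1523 peaks (3.48%) and within 500 bp of 26. An ESC CHD4 midpoint lay within 1 kb of 341 peaks (22.4%) and within 500 bp of 188, with a median distance of 9077 bp. Of the 2669 NPC promoter peaks without MBD3, 720 overlapped ESC CHD4 replicate 2 only, 71 replicate 1 only, 355 both and 1523 neither. A peak that was NPC-only by position could thus belong to a gene with CHD4 at its promoter in ESCs. Of genes with an NPC-only promoter peak without MBD3, 453 (30.6%) had an ESC CHD4 peak within 1 kb of a TSS, with 23.5% over all protein-coding genes. For an NPC MBD3 peak these shares were 5.06% and 2.33%, and for an ESC SIN3A site 47.6% and 28.6%. When peaks with an ESC CHD4 peak within 1 kb were left out as well, the AP-1 share was 16.8%, against 5.11% in the correspondingly enlarged ESC-shared class (odds ratio 3.74, Fisher's exact test, adjusted p = 1.01e-22).

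The peaks fell within 1 kb of a TSS of 1481 of 22372 protein-coding genes (6.62%). Of genes with a CpG-rich TSS window 10.4% had one, and of the others 2.40%. A single peak was found at 1333 genes, 2 at 142 and 3 at 6, namely Arhgef19, Cdk14, Cerk, Cxxc4, Sorcs2 and Synpo. Of the genes, 164 (11.1%) also had another NPC CHD4 promoter peak, and 1285 further genes had only NPC CHD4 promoter peaks of other classes. The start of more than 1 gene lay within 1 kb of 110 peaks. The gene lists that follow were drawn up with earlier results of these data known, and are described by counts beside these background shares, with exact intervals that cover counting only.

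Genes of the AP-1 family carried these peaks in 5 of 17 cases (29.4%, interval 10.3 to 56.0), at Atf3, Fos, Jun, Junb and Maf, with 2 peaks at Jun. Scores were between 6.20 and 7.88, so that 0 of the 17 had a peak with a score of at least 10. Leaving out peaks with an ESC CHD4 peak within 1 kb gave 11.8%, with 5.02% over all genes. The 6 peaks lay 81 to 603 bp upstream, and 5 were CpG-rich. The Fos peak fell short of the CpG criteria. None held the AP-1 string in its central 200 bp. The Junb peak overlapped an ESC SIN3A site. The Jun, Junb and Fos peaks had an ESC CHD4 midpoint 650 to 1144 bp away, Atf3 at 6484 bp, and the Atf3 peak had an NPC MBD3 midpoint at 233 bp, close by but without a shared base.

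Genes induced by ERK or feeding back on it were found in 7 of 24 cases (29.2%, interval 12.6 to 51.1), or 16.7% without ESC CHD4 within 1 kb. They were the zinc finger gene Egr2 (score 9.66, 557 bp downstream), the ERK phosphatase gene Dusp6 (7.88, 123 bp upstream), Myc (6.48, 11 bp upstream), the ETS factor gene Etv5 (6.34), Klf6 with 2 peaks (6.005 and 5.42), the phosphatase gene Dusp1 (5.68) and the receptor tyrosine kinase inhibitor gene Spry2 (4.01). All 8 peaks were CpG-rich, and the AP-1 string was present at Etv5 alone among them. An ESC CHD4 midpoint lay within 1 kb at Myc (864 bp), Dusp1 (629 bp) and Spry2 (327 bp).

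Focal adhesion and actin genes were found in 9 of 38 cases (23.7%, interval 11.4 to 40.2). They were led by the laminin receptor subunit Itga6 (8.76, 305 bp upstream), the actin-binding Cald1 (8.64, 104 bp upstream) and the non-muscle myosin gene Myh10 (8.13, 484 bp upstream), followed by Actg1 (7.62), Tpm2 (7.23, with the AP-1 string), Tagln2 (6.38), Tln1 (4.64), Ptk2 (3.67) and Actn1 (3.20, with a SIN3A site). Of the TGF-beta and BMP pathway 7 of 34 genes (20.6%, interval 8.70 to 37.9) had a peak, or 11.8% without ESC CHD4 within 1 kb. These were the receptor genes Acvr1 (12.7, with a SIN3A site), Tgfbr2 (8.65, with the AP-1 string, 64 bp upstream) and Bmpr2 (7.66), the ligand gene Bmp2 (5.42), the signal transducer gene Smad1 (5.47), the inhibitor gene Smad6 (8.97, with a SIN3A site) and the corepressor gene Tgif1 (5.44, with the AP-1 string and a SIN3A site).

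Wnt pathway genes were found in 6 of 33 cases (18.2%, interval 6.98 to 35.5), comprising the ligands Wnt5a (6.63 and 6.005) and Wnt1 (6.005), the receptors Lrp6 (12.6) and Fzd1 (7.07), and the destruction complex genes Axin1 (6.35, with the AP-1 string) and Axin2 (5.13). Hippo effectors and targets had 4 of 20, Amotl1, Mob1a, Mob1b and Tead1, with scores between 3.20 and 8.52. The Hippo share was 20% here, 35% without ESC CHD4 replicate 2 and 5% at scores of at least 5. Of Notch pathway genes 1 of 24 had a peak (4.17%), the repressor gene Hes1 (4.54, 973 bp downstream). Polycomb subunit genes had 6 of 25 (24.0%, interval 9.36 to 45.1), the PRC2 genes Suz12 (8.03) and Phf19 (6.81) and the PRC1-associated genes Pcgf5 (7.42), Kdm2b (6.79), Bmi1 (6.20) and Yaf2 (5.73). These 6 peaks were CpG-rich and without the string, and with gene 5′ ends as TSS the share was 12%. Only NPC CHD4 promoter peaks of other classes were found at 7 further Polycomb, 7 Hippo, 5 Notch and 1 Wnt genes. In the lists above these numbers were 1 (AP-1), 3 (ERK), 4 (focal adhesion and actin) and 4 (TGF-beta and BMP).

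Of neural progenitor markers 4 of 23 (17.4%, interval 4.95 to 38.8) had a peak, namely the intermediate filament gene Nes (8.70, 27 bp upstream, with a SIN3A site), Bmi1, Hes1 and the cadherin gene Cdh2 (4.08, 813 bp upstream). With gene 5′ ends as TSS the share was 4.35%, below the 5.69% of all genes, and at a distance of 500 bp or scores of at least 5 it was 8.70%. Pluripotency factors had 0 of 21 (interval up to 16.1%), neuronal genes 0 of 23 (up to 14.8%), Hox genes 0 of 39 (up to 9.03%) and genes of NuRD subunits 0 of 15 (up to 21.8%). NPC CHD4 promoter peaks of other classes only were found at 3 NuRD subunit genes, 3 Hox genes, 1 neuronal gene, 1 neural progenitor marker and 0 pluripotency factors. Olfactory receptor genes had 1 of 1087 (0.0920%, Olfr52, score 7.60, 780 bp upstream) and vomeronasal receptor genes 0 of 319.

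**Figure D4:**
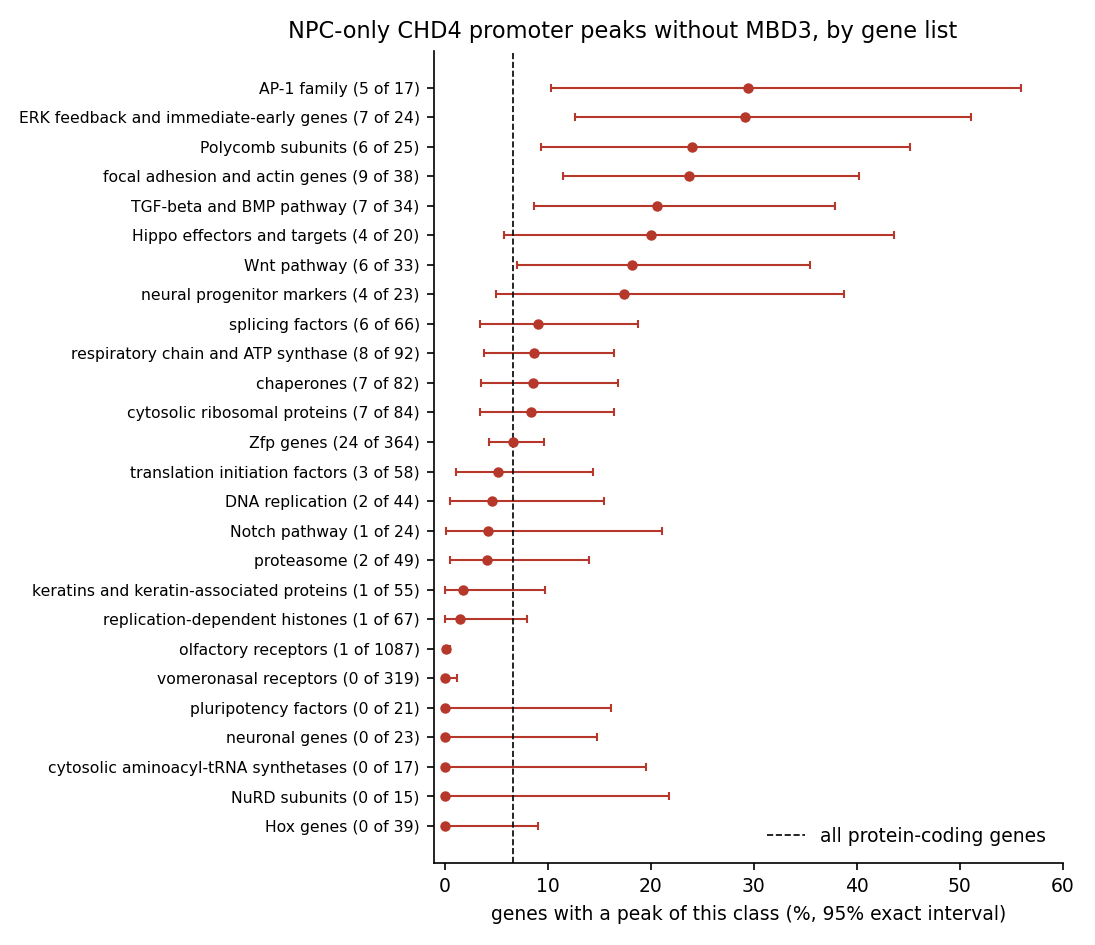
Percent of the genes of each list with an NPC-only CHD4 promoter peak without MBD3 (x axis, exact 95% interval), with the count in brackets and the share over all protein-coding genes (6.62%) as a dashed line. The AP-1 family (5 of 17) and the ERK list (7 of 24) stand at the top, and receptor families of the nose at or near 0.

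Most housekeeping groups had shares from 4.08% to 9.09%, around the 6.62% of all genes and below the 10.4% of genes with a CpG-rich TSS window. Cytosolic ribosomal protein genes had 7 of 84 (8.33%, led by Rps7 at 17.2, Rpl18 at 10.3 and Rps4y2 at 9.90), respiratory chain and ATP synthase genes 8 of 92 (8.70%, led by Cycs at 16.5, Ndufb6 at 9.38 and Ndufa13 at 7.88), chaperones 7 of 82 (8.54%) and splicing factors 6 of 66 (9.09%, led by Sf1 at 22.6, with the AP-1 string 915 bp upstream). Shares were 5.17% for translation initiation factors, 4.08% for the proteasome, 4.55% for DNA replication and 6.59% for the 364 Zfp genes. Cytosolic aminoacyl-tRNA synthetases had 0 of 17. Replication-dependent histone genes had 1 of 67 (Hist4h4, 16.0), and keratin and keratin-associated names 1 of 55 (Krtcap2, an oligosaccharyltransferase subunit by function).

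The peaks were unevenly spread over chromosomes. Chromosome 3 held 134 (8.80%, with 4.72% of protein-coding genes), chromosome 19 held 98 (6.43% and 3.24%) and chromosome 6 held 123 (8.08% and 5.23%). Chromosome 14 held 24 (1.58% and 4.26%), chromosome 8 held 47 (3.09% and 4.84%) and chromosome X 15 (0.985% and 4.17%). The other 1476 promoter peaks of NPC CHD4 were likewise above the gene share on chromosomes 3 (7.72%), 19 (5.28%) and 6 (7.05%) and below it on 14 (2.03%) and X (0.339%), but on chromosome 8 they were above it (6.37%). No test was made of this, and without chromosomes 3, 6, 8, 14 and 19 the AP-1 odds ratio against ESC-shared promoter peaks was 3.93 (Fisher's exact test, adjusted p = 2.22e-15).

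**Figure D5:**
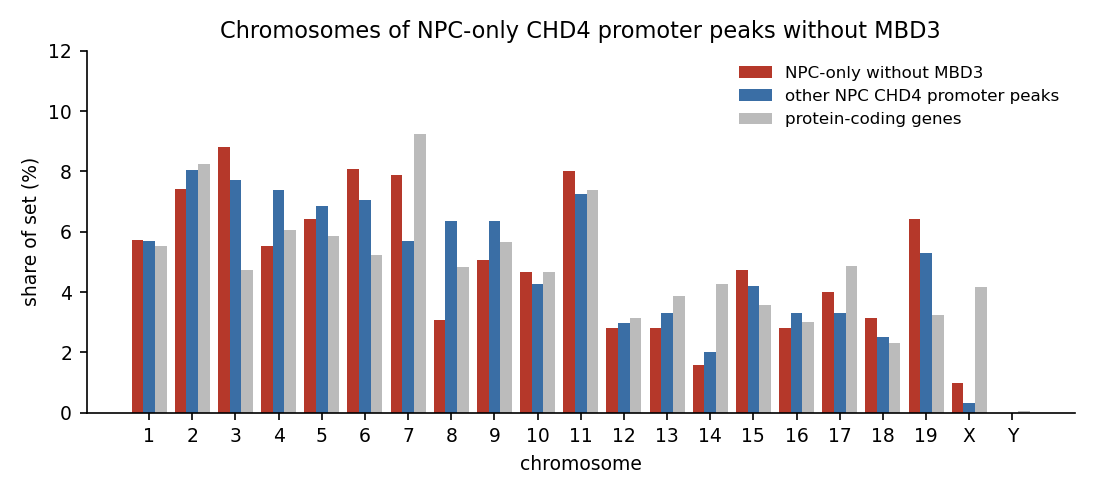
Share of NPC-only CHD4 promoter peaks without MBD3, of the other NPC CHD4 promoter peaks and of protein-coding genes (y axis, percent of each set) per chromosome (x axis). Chromosomes 3, 6 and 19 hold more of both peak sets than of genes, and chromosome 8 differs between the peak sets.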

How the data were processed

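ChIP-seq of CHD4, MBD3, SIN3A and GFP-ZFP296 gave 9 peak lists, which the authors made by mapping reads to mm9 with BWA, retaining unique, filtered and deduplicated reads, and calling peaks for each sample with MACS2 (2.0, per the labels) against input of the same cell line. Each deposited peak carries a −log10 value (p or q is not stated), and the peak names state a threshold of 0.001, or 0.0001 for SIN3A without spike-in. 7 lists are named as scaled to a common read number and the SIN3A lists are not, and read depth is not given in the files.

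Positions were converted to 1-based coordinates. TSSs were the starts of protein-coding transcripts in GENCODE vM1, on the same build. Classes were set by overlap of at least 1 bp. 12 strings were searched in the central 200 bp. Shares carry exact binomial 95% intervals, which cover counting error only, and were compared by two-sided Fisher's exact tests on peaks with Benjamini-Hochberg adjustment within 4 families and a family of strings, at a threshold of 0.05. The scripts were tested on simulated data (Python 3.11.15, scipy 1.17.1). Results were recomputed under 20 other settings and 3 chosen after seeing the data (both CpG strata and a 1 kb distance to ESC CHD4).

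The members and the 26 gene lists were chosen with earlier results of these data known. Named peaks were the 10 highest scores, the 3 highest per feature and per list, and 3 on each side of the distance limit. Further members of the smaller lists and the Col15a1 and Klhl21 sequences were named after their values were seen. Other samples of the series were not used here. The sequence of 1 peak is not reported here.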

Additional observations from a re-analysis of the deposited data

How the results depend on the processing

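The AP-1 excess over ESC-shared promoter peaks kept its direction and passed the threshold in all 16 alternatives (odds ratios 2.32 to 6.46, highest adjusted p = 0.00534, Fisher's exact test). The CpG odds ratio against distal peaks was 68.5 to 135 in its 15 alternatives, a description because distance from a TSS set these classes apart. The AP-1 deficit against distal peaks passed in all but 1 (0.639 in CpG-rich peaks, Fisher's exact test, adjusted p = 0.248). The AP-1 deficit against NPC-only promoter peaks with MBD3 no longer passed with gene 5′ ends as TSS (0.654) or a distance of 500 bp (0.650). Nor did it pass at scores of at least 5 (0.675) or without 5 chromosomes (0.624). It turned in CpG-rich peaks (1.54, interval 0.480 to 7.90), where 3 of 86 peaks with MBD3 held the string. In CpG-poor peaks it passed (0.397, Fisher's exact test, adjusted p = 0.000951). Leaving out an ESC CHD4 replicate gave 0.585 to 0.706 for it, 0.508 to 0.845 for CpG against ESC-shared peaks, 0.720 to 1.08 for nearness to the TSS against ESC-shared peaks, 0.497 to 1.06 for the ETS string and 0.786 to 1.03 for the SP/KLF string, with the higher value in each case, and the loss of any call, without replicate 2. Nearness against ESC-shared peaks was also lost at 500 bp (0.863), at scores of at least 10 (0.7496), without 5 chromosomes (0.831) and without ESC CHD4 within 1 kb (0.875). Against peaks with MBD3 it passed with midpoints within 500 bp as overlap (1.54) and without MBD3 within 1 kb (1.51).

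The CpG comparison with NPC-only promoter peaks with MBD3, an odds ratio of 1.00, moved below 1 with gene 5′ ends (0.788), 2 kb (0.801), scores of at least 5 (0.898), without 5 chromosomes (0.956), a 200 bp window (0.880) and stricter limits (0.823), and was 0.599 to 0.931 without an ESC CHD4 replicate. The comparison of divergent promoters crossed 1 against the same class with gene 5′ ends (0.818), 500 bp (0.843), 2 kb (0.957) and no ESC CHD4 within 1 kb (0.951), and against ESC-shared peaks at 500 bp (1.01), with midpoints as overlap (1.04), scores of at least 5 (1.06) or 10 (1.08), without 5 chromosomes (1.04), with no ESC CHD4 within 1 kb (1.07) and without an ESC CHD4 replicate (0.737 to 1.10). None of these passed the threshold except the CpG comparison without replicate 2. The SIN3A odds ratio was 0.659 to 0.911 without 1 list. The ZFP296 odds ratio turned at scores of at least 5 (0.546) or 10 (0.857) and in CpG-poor peaks (0.469). The ESC MBD3 difference was lost at scores of at least 10 (0.209), with 1 peak per gene (0.291), without 5 chromosomes (0.318), in CpG-poor peaks (0.0939) and without ESC CHD4 within 1 kb (0.450). Without 1 list it was 0.104 to 2.58, the latter without ESC MBD3 replicate 2 and with 0.5 added to each cell, as the class with MBD3 then had 0 peaks.

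The number of peaks was 345 at scores of at least 10, and 1594 to 2243 without an ESC CHD4 replicate. The median score was 7.65 at 2 kb, 7.76 and 12.6 at scores of at least 5 and 10, and 7.60 to 7.70 without a replicate. Genes with a peak were 5.69% with gene 5′ ends, 5.16% at 500 bp, 8.41% at 2 kb, 7.14% with overlap of 0.5 of the shorter peak, 5.75% with midpoints as overlap, 6.18% and 1.63% at scores of at least 5 and 10, 4.80% without 5 chromosomes, 5.02% without ESC CHD4 within 1 kb and 6.95% to 9.61% without a replicate. Chromosome 3 held 11.6% of peaks at scores of at least 10. Comparisons of the other strings that passed numbered 3 at 2 kb and 0 with gene 5′ ends, 500 bp, either score limit, 1 peak per gene, no 5 chromosomes or no ESC CHD4 within 1 kb, and 0 to 1 without a replicate. At scores of at least 10, lists of AP-1, ERK, Hippo, Polycomb, focal adhesion and neural progenitor genes had 0 genes with a peak. The causes of these changes were not tested. No paired analysis was possible because the results come from overlaps of peak lists and the NPC lists have no replicate. The number of peaks per list, with no read depth, limits what an absent peak can show.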
